A study of Mus musculus with 30 samples.

Results

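The carbohydrate sulfotransferases encoded by the Chst genes were followed in the transcriptome of mouse microglia, the resident macrophages of the brain, in which *Bin1* was deleted. Of the 47643 genes listed, 9 were examined: *Chst1*, *Chst2*, *Chst3*, *Chst7*, *Chst10*, *Chst11*, *Chst12*, *Chst14* and *Chst15*. The set was chosen by name around *Chst1* and *Chst2*, which were themselves selected on their higher level in all Cre-positive groups of these same libraries. Their difference from WT mice is therefore given as a description and without a test, and the question is what the other 7 genes of the set did in the same cells. The study names *Chst1* and *Chst2* as increased in both sexes, and its lists of differing genes required an adjusted p below 0.05 and a fold above 1.5. No threshold was applied in taking the other 7 genes. Of the 9 genes, 8 passed the filter on low values, *Chst3* being the exception.

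RNA-seq was performed on 30 libraries of 6 groups, each library carrying the number of a separate mouse, so p-values measure the spread between mice. In the study, microglia were sorted as CD11b+ CD45 medium cells from brains of 3 month-old mice. WT animals (5 male, 4 female) were Bin1 wt/flox and lacked Cre, Het animals (6 male, 5 female) were Bin1 wt/flox::Cx3Cr1-Cre+, and Homo animals (5 male, 5 female) were Bin1 flox/flox::Cx3Cr1-Cre+. A floxed *Bin1* allele was thus shared by all groups, and Cre was carried by all Het and Homo mice and by no WT mouse. The Cre strain is a knock-in at *Cx3cr1*, so it acts in microglia and in other cells that use this gene, and it replaces a *Cx3cr1* copy. Effects of Cre, of the altered *Cx3cr1* locus and of the loss of the first *Bin1* copy cannot be told apart in any comparison with WT. Expression was measured as FPKM, fragments scaled to transcript length and to the mapped fragments of the library, which allows levels of different genes to be compared per length.

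CHST enzymes sit in the Golgi and transfer sulfate from the donor PAPS to sugars of glycoproteins and proteoglycans. CHST1 and CHST2 sulfate carbon 6 of galactose and of N-acetylglucosamine, respectively, and act on keratan sulfate and on related chains such as sialyl Lewis x, the core of ligands for selectins and Siglecs. CHST3, CHST7 and CHST15 act on chondroitin sulfate at carbon 6 of N-acetylgalactosamine, CHST11 and CHST12 at carbon 4 of that sugar, and CHST14 at carbon 4 in dermatan sulfate. CHST10 adds sulfate to glucuronic acid to form the HNK-1 epitope. Sulfated chondroitin and keratan chains are prominent in the extracellular matrix of the brain, which microglia help to remodel.

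The 9 genes lie apart in the genome (GRCm38, GENCODE M21, all annotated as protein coding). *Chst1* (ENSMUSG00000027221) occupies chr2:92599707-92615250 on the plus strand, and *Chst14* (ENSMUSG00000074916) is on the same chromosome at chr2:118926496-118928585, 26.31 Mb away. *Chst2* (ENSMUSG00000033350) is at chr9:95399292-95406722 on the minus strand, 24.49 Mb from *Cx3cr1*, where Cre was inserted. *Chst3* (ENSMUSG00000057337, chr10:60181532-60219260) and *Chst11* (ENSMUSG00000034612, chr10:82985498-83195900) share a chromosome at a distance of 22.77 Mb. The remaining members are *Chst7* (ENSMUSG00000037347, chrX:20059560-20097521), *Chst10* (ENSMUSG00000026080, chr1:38863867-38898161), *Chst12* (ENSMUSG00000036599, chr5:140505550-140525724) and *Chst15* (ENSMUSG00000030930, chr7:132235780-132317228). *Chst1* and *Chst2* are thus on different chromosomes.

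Because *Chst1* and *Chst2* moved together, the 250 bases before their RefSeq start sites (GRCm38.p6, printed on the strand of the gene) are shown side by side, with the GC box GGGCGG in capitals where it occurs. The *Chst1* window is chr2:92600867-92601116 on the plus strand, in an intron of the GENCODE gene because the RefSeq start lies 1410 bases inside it. The *Chst2* window is chr9:95407271-95407520 on the minus strand, its start site 548 bases before the GENCODE gene.
Chst1: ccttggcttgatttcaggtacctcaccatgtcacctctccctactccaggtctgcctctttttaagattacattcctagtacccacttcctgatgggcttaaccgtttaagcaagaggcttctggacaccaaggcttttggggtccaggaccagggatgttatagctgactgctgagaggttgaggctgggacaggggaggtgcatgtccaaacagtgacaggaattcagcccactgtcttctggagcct
Chst2: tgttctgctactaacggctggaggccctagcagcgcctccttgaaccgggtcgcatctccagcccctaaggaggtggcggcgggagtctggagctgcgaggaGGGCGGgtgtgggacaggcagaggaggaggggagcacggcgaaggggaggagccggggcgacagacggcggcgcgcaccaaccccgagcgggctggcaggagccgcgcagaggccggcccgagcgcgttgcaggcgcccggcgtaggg
The 2 windows had little in common in composition. The *Chst2* window was 72.8% G or C with 27 CpG, a GC content above that of 94.0% of the 32851 windows in RefSeq. The *Chst1* window was 51.6% G or C, near the median of all windows (52.4%), and held 1 CpG, below the median of 6. Searched on both strands, GGGCGG was found in windows of 7 of the 9 genes, *Chst1* and *Chst10* being without it, and in 32.7% of all windows. The PU.1 core GAGGAA was found in windows of *Chst3*, *Chst10* and *Chst15* and in 23.3% of all windows. AGGTCA, a nuclear receptor half-site, was in the *Chst10* window and in 14% of all. The AP-1 motif TGANTCA was in none of the windows of the 9 genes and in 6.75% of all. The same was so of the TATA box, spelled TATAAA, which 12.4% of all windows held. These matches describe letters in the windows only.

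The labels were first checked with *Bin1* and *Cx3cr1*, of which *Bin1* had a mean of 258.3 ± 21.4 FPKM (n = 5, SD) in male WT and 49.7 ± 6.82 (n = 5, SD) in male Homo mice. Means of *Bin1* in females were 253 ± 12.51 (n = 4, SD) and 41.2 ± 1.90 (n = 5, SD). Among 11 Het libraries, 2 went against their label: *Bin1* was at 42.7 FPKM in the one labelled Het-F-0206 and at 51.8 in the one labelled Het-M-0199, within or near the range of Homo libraries. The library labelled Het-F-0206 also had *Cx3cr1* at 13.9 FPKM, where WT libraries had between 1829 and 2344. Values of Het groups that rest on these 2 libraries are also given without both. The 9 microglia markers summed to between 19136 and 26918 FPKM in all libraries. Markers of neutrophils summed to at most 349 FPKM, those of the choroid plexus to 264, of oligodendrocytes to 174, of astrocytes to 129, and those of the other cell types examined to 47.0 or less. In the astrocyte list *Slc1a3* averaged 82.3 FPKM (63.9 or more in every library), and *Aldoc*, the next highest, 4.08. The astrocyte sum thus largely followed *Slc1a3*. In the oligodendrocyte list *Cnp* averaged 37.2 FPKM (24.5 or more in every library) and *Mbp* 21.5. Depth relative to the median library ranged from 0.669 to 1.41, and absolute depth is unknown. The mouse numbers formed an early range with 6 libraries (3 male Homo, 2 male Het, 1 female WT) and a late range with 24.

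*Chst1*, the galactose 6-sulfotransferase, had 19.0, 15.7, 16.3, 9.90 and 20.3 FPKM in the 5 male WT libraries and 11.2, 16.0, 11.2 and 14.4 in the 4 female ones. In male Het libraries it ranged from 31.8 through a median of 33.5 to 38.2, and in male Homo libraries it was 37.7, 32.1, 33.3, 32.3 and 35.2. Each male Cre-positive library was thus above every male WT library, and the 2 genotypes covered nearly the same range. In female Het libraries *Chst1* was 33.1, 68.9, 33.5, 48.5 and 36.5 FPKM, and in female Homo libraries 32.4, 37.7, 37.5, 34.1 and 35.2. Again no Cre-positive library overlapped with WT, and the highest value of all belonged to the library labelled Het-F-0206. On the log2(scaled FPKM + 0.1) scale, *Chst1* was higher than in WT by 1.04 ± 0.16 (SE) in male Het, 1.02 ± 0.17 in male Homo, 1.68 ± 0.18 in female Het and 1.43 ± 0.18 in female Homo mice. As folds these were 2.06, 2.03, 3.21 and 2.69. Without both libraries that went against their label, the value was 1.51 in female Het and 1.00 in male Het mice.

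*Chst2*, the N-acetylglucosamine 6-sulfotransferase, was far less abundant, with 0.774, 0.629, 0.680, 0.504 and 0.608 FPKM in male WT and 0.423, 0.486, 0.354 and 0.373 in female WT libraries. In male Het libraries it ranged from 1.05 through a median of 1.45 to 1.78, and in male Homo libraries it was 1.69, 1.20, 1.48, 1.02 and 1.37. In female Het libraries it was 1.23, 2.30, 1.32, 1.82 and 1.69, and in female Homo libraries 1.24, 1.26, 1.37, 1.15 and 1.33. As with *Chst1*, every Cre-positive library exceeded every WT library of its sex, and the library labelled Het-F-0206 was the highest. The log2 difference from WT was 0.97 ± 0.19 (SE) in male Het, 0.89 ± 0.20 in male Homo, 1.77 ± 0.21 in female Het and 1.43 ± 0.21 in female Homo mice, or folds of 1.96, 1.85, 3.42 and 2.70. Without both libraries that went against their label, it was 1.66 in female Het and 1.00 in male Het mice. These folds are smaller with a larger pseudocount, since *Chst2* is near 1 FPKM: with 1 in place of 0.1, the log2 differences in the same order were 0.52, 0.47, 0.92 and 0.69.

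Since these contrasts chose both genes, the lack of overlap is read against all 16897 genes tested. Every library was above WT for 0.515% of genes in male Het, 2.56% in male Homo, 1.58% in female Het and 1.65% in female Homo mice, and 15 genes (0.0888%), *Chst1* and *Chst2* among them, showed this in all 4 comparisons. By size of the log2 difference, *Chst1* stood 79th and *Chst2* 61st of 16897 in female Het mice, 115th and 114th in female Homo, 405th and 498th in male Het, and 638th and 947th in male Homo mice. Without both libraries against their label, *Chst1* stood 121st and *Chst2* 88th of 16891 in female Het mice, and 537th and 525th in male Het mice. The 4 comparisons share the WT libraries of each sex and are not independent of one another. With late mouse numbers alone, the log2 difference of *Chst1* was 1.08 in male Het, 1.09 in male Homo, 1.60 in female Het and 1.34 in female Homo mice, and that of *Chst2* was 1.04, 0.80, 1.77 and 1.43.

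**Figure D1:**
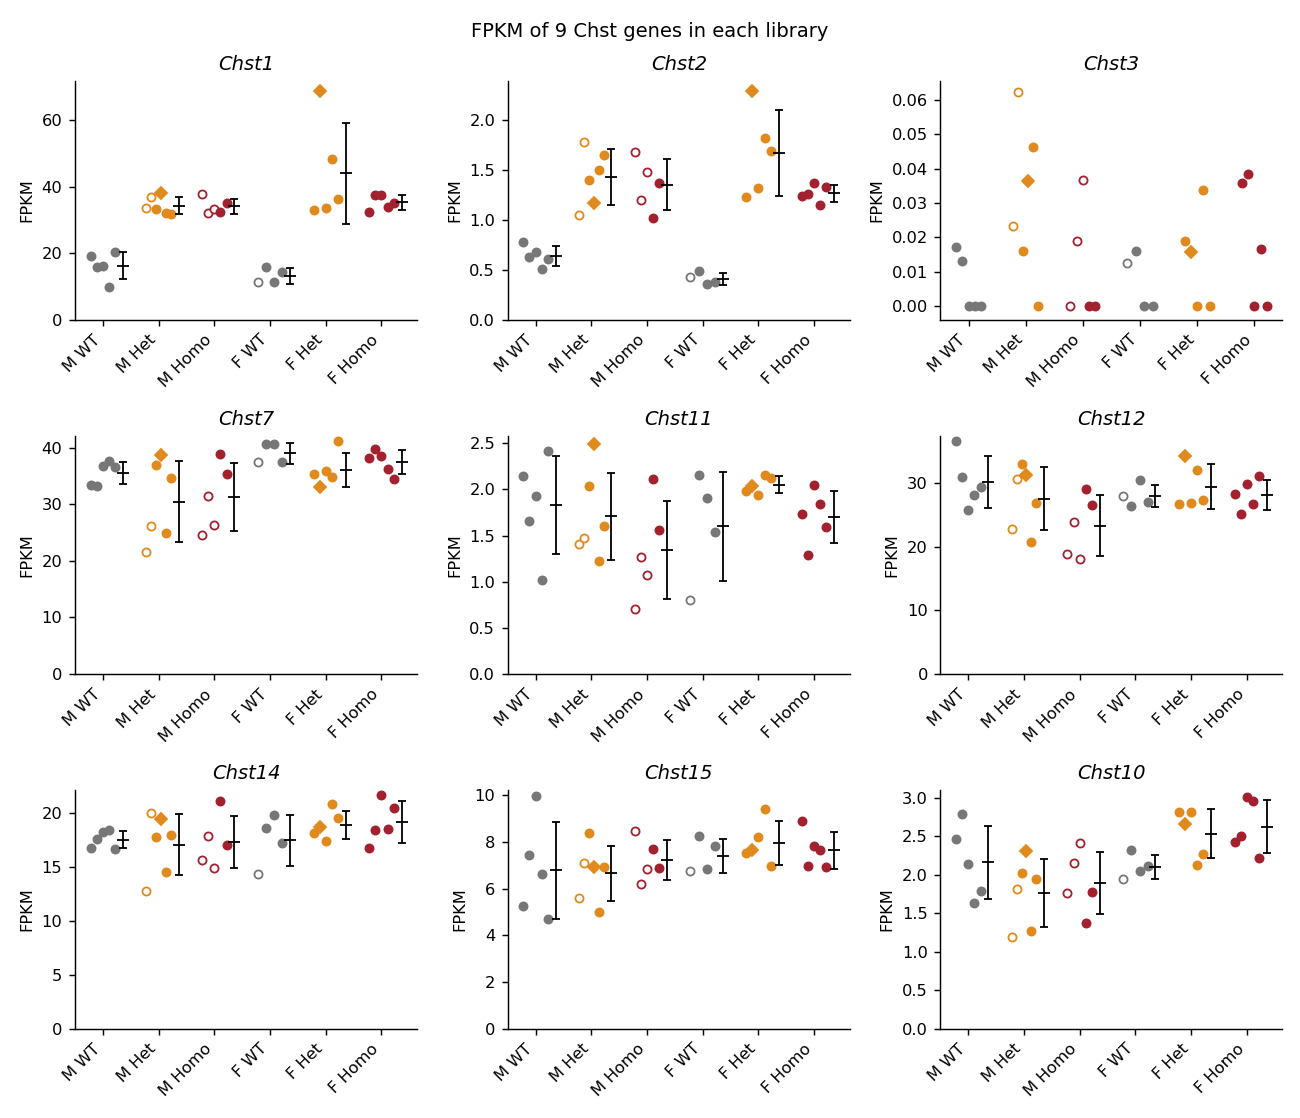
FPKM (y axis) of the 9 Chst genes in each library, by sex (M, F) and genotype (x axis). Bars with caps are the mean ± SD of the group (not drawn for Chst3, which is listed at 0 in many libraries), open symbols are early mouse numbers, and diamonds are the libraries labelled Het-M-0199 and Het-F-0206. Chst1 and Chst2 show no overlap between WT and Cre-positive libraries of the same sex, and ranges of the other genes overlap with WT in all 4 Cre-positive groups.

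The chondroitin 6-O enzymes showed no such shift. *Chst7*, the most abundant member in WT microglia of both sexes, had 33.5, 33.3, 36.7, 37.6 and 36.6 FPKM in male WT libraries. It was 24.5, 31.5, 26.4, 38.9 and 35.3 in male Homo libraries and ranged from 21.5 through a median of 30.4 to 38.7 in male Het libraries, so some Cre-positive males were lower than all WT males, others fell within the WT range and 1 library of each genotype lay above it. In female WT libraries it was 37.4, 40.7, 40.6 and 37.4, overlapping with Het (33.1 to 41.2) and Homo (34.5 to 39.8). Its log2 difference from WT was -0.33 ± 0.15 (SE) in male Het (limma, adjusted p = 0.340), -0.28 ± 0.16 in male Homo (adjusted p = 0.289), -0.12 ± 0.17 in female Het and -0.062 ± 0.17 in female Homo mice (adjusted p = 1 in both). *Chst15*, which adds the further sulfate of chondroitin sulfate E, had group means between 6.65 and 7.96 FPKM. Its log2 differences from WT lay between -0.072 and 0.095, and none passed the test. *Chst3* was close to absent, with a highest value of 0.0624 FPKM in any library, and was listed at 0 in 13 of 30. At such values no difference between groups was detectable.

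The 4-O enzymes of chondroitin and dermatan sulfate were also without a call. *Chst12* had 36.6, 30.9, 25.8, 28.2 and 29.4 FPKM in male WT libraries and 18.9, 23.9, 18.0, 29.1 and 26.6 in male Homo libraries. The 3 lowest male Homo values were those of early mouse numbers, and the 2 late ones fell within the range of WT. This was the smallest unadjusted p among the 6 tested members in any comparison with WT: the log2 difference was -0.47 ± 0.16 (SE), with an unadjusted p of 0.00538 and an adjusted p of 0.0833 by limma. In the other groups the log2 difference of *Chst12* was -0.21 ± 0.15 (male Het), 0.062 ± 0.17 (female Het) and 0.0073 ± 0.17 (female Homo). *Chst11* was low and variable, with group means between 1.35 and 2.05 FPKM. It was lowest in an early male Homo library (0.709) and highest in the library labelled Het-M-0199 (2.496), and its log2 differences ran from -0.52 ± 0.28 in male Homo to 0.41 ± 0.30 in female Het mice. *Chst14*, the dermatan 4-O-sulfotransferase, had group means between 17.0 and 19.1 FPKM and log2 differences between -0.13 and 0.13, the steadiest of the set with an SD of 0.23 (log2) within groups.

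*Chst10*, the HNK-1 sulfotransferase, had 2.46, 2.79, 2.14, 1.64 and 1.78 FPKM in male WT and 1.94, 2.32, 2.05 and 2.11 in female WT libraries. In female Homo libraries it was 2.43, 2.51, 3.01, 2.96 and 2.22, largely above WT but with overlap, and in female Het libraries it was 2.82, 2.66, 2.81, 2.13 and 2.27. The log2 difference was 0.30 ± 0.21 (SE) in female Homo and 0.25 ± 0.21 in female Het mice, and -0.26 ± 0.20 in male Homo and -0.36 ± 0.19 in male Het mice. None of these passed the test by limma, and the exact permutation test of female Homo against WT mice gave p = 0.0317, or 0.584 after adjustment.

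Across the 6 tested members, 0 were called in each of the 4 comparisons with WT, where a call required an adjusted p below 0.05 by limma and a fold above 1.5. Called genes were 1.81% of all genes in male Homo, 0.154% in male Het, 0.0710% in female Homo and 0.130% in female Het mice, so a count of 0 among 6 is also what the background gives. At an unadjusted p below 0.05 the count was 1 in male Homo (*Chst12*), 1 in male Het (*Chst7*) and 0 in both female comparisons, beside 22.5% of all genes in male Homo, 14.2% in male Het, 3.49% in female Homo and 3.95% in female Het mice. In exact two-sided permutation tests on the deposited FPKM, a family of 46 tests that includes Homo against Het, 3 had an unadjusted p below 0.05 and 0 an adjusted one, the smallest adjusted p being 0.584. The 95% intervals of the 6 genes bound the change. They reached no further up than 1.32-fold in male Het, 1.32-fold in male Homo and 1.68-fold in female Homo mice. In female Het mice the interval of *Chst11* reached up to 2.02-fold. Downward, the intervals reached 0.594-fold in male Het, 0.468-fold in male Homo, 0.723-fold in female Het and 0.726-fold in female Homo mice. Whether *Chst1* and *Chst2* differ from the family by more than their selection brings was not tested. Leaving out any library in turn gave 0 calls among the 6 genes in the 4 comparisons with WT. *Chst12* in male Homo mice came nearest to a call without the library Homo-M-0189, with a log2 difference of -0.58 and an adjusted p of 0.0274 by limma at a fold below the threshold, and its difference was -0.11 with late mouse numbers alone (adjusted p = 0.943).

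**Figure D2:**
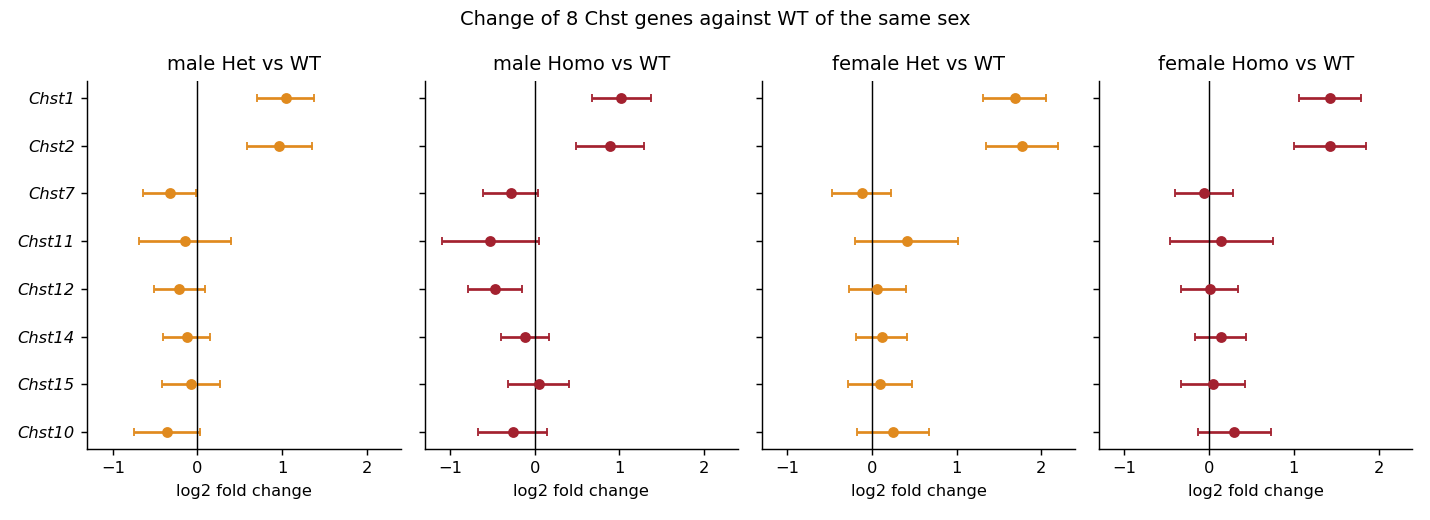
log2 fold change on the log2(scaled FPKM + 0.1) scale (x axis) of 8 Chst genes (y axis) against WT of the same sex in the 4 Cre-positive groups. Points are estimates and bars 95% intervals of the limma fit. Chst1 and Chst2, selected on this difference, lie between 0.89 and 1.77, and the other 6 genes between -0.52 and 0.41.

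The order of the members changed accordingly. In male WT mice it was *Chst7* (35.5 ± 2.00 FPKM, n = 5, SD), *Chst12* (30.2 ± 4.03), *Chst14* (17.5 ± 0.815), *Chst1* (16.2 ± 4.02), *Chst15* (6.79 ± 2.08), *Chst10* (2.16 ± 0.474), *Chst11* (1.83 ± 0.532) and *Chst2* (0.639 ± 0.0992), with *Chst3* last. Neighbours with overlapping ranges were *Chst7* and *Chst12*, *Chst14* and *Chst1*, *Chst1* and *Chst15*, and *Chst10* and *Chst11*. Female WT mice gave the same order, with overlap between *Chst14* and *Chst1* and between *Chst10* and *Chst11*. In male Het, male Homo and female Het mice, *Chst1* had the highest mean, at 34.4 ± 2.62 (n = 6, SD), 34.1 ± 2.35 (n = 5) and 44.1 ± 15.2 (n = 5) FPKM, although its range overlapped with that of *Chst7* in each. Without both libraries against their label, the mean was 33.6 ± 2.04 (n = 5) in male Het and 37.9 ± 7.21 (n = 4) in female Het mice. In female Homo mice *Chst1* (35.4 ± 2.24, n = 5) came after *Chst7* (37.5 ± 2.09), again with overlap. *Chst2* came up to the range of *Chst11* in all 4 Cre-positive groups, but in female Het mice only through the library labelled Het-F-0206 (2.30 FPKM). There *Chst11* ranged from 1.94 to 2.16 FPKM, and the highest *Chst2* value without that library was 1.82.

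As a share of the summed FPKM of the 9 genes, *Chst1* made up between 9.52% and 18.0% in male WT and between 9.88% and 13.9% in female WT libraries. The share was between 24.2% and 34.5% in male Cre-positive libraries and between 25.0% and 40.6% in female ones, or at most 32.0% when Het-F-0206 was left out. The sum without *Chst1* and *Chst2* was 94.0 ± 1.84 FPKM (n = 5, SD) in male WT, 85.2 ± 15.5 (n = 6) in male Het and 82.4 ± 13.04 (n = 5) in male Homo mice. Among females it was 95.6 ± 5.55 (n = 4), 96.9 ± 3.96 (n = 5) and 96.8 ± 3.60 (n = 5). The sum of the other 7 genes thus varied little in females, and in Cre-positive males it was spread more widely than in WT. All male WT libraries had late mouse numbers. In male Cre-positive libraries the sum was 65.3, 87.2, 69.9, 82.8 and 69.6 FPKM at early numbers. At late numbers it was 100.1, 101, 67.8, 90.0, 100.2 and 89.1. The highest male share of *Chst1*, 34.5%, was in the early library Homo-M-0093. The part of the number range in the spread was not tested. In sorted bulk samples, fewer cells of a type and less RNA per cell cannot be told apart.

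**Figure D3:**
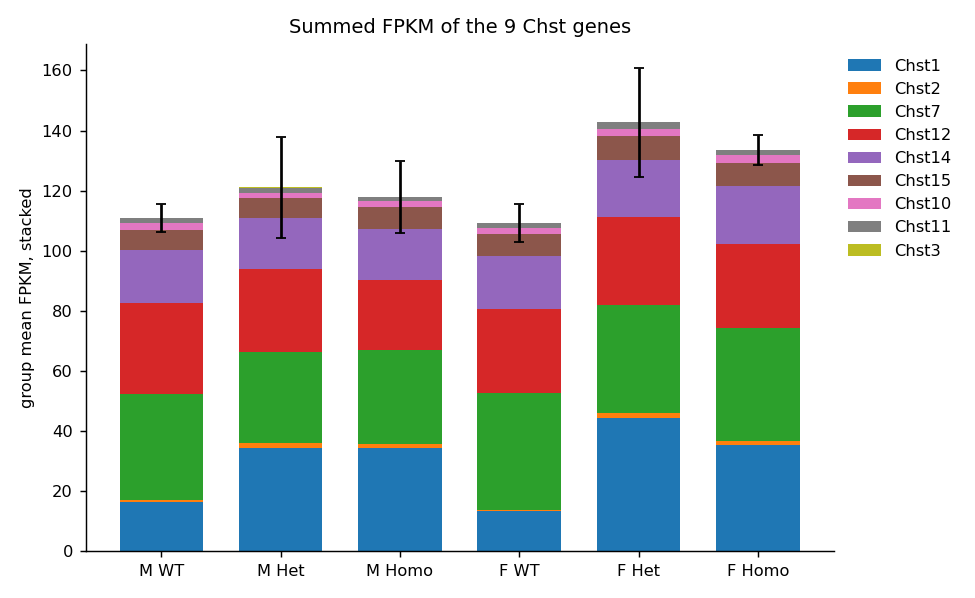
Group means of FPKM of the 9 Chst genes, stacked (y axis), by sex and genotype (x axis). Bars with caps are the SD of the summed value over libraries. The Chst1 segment is 16.2 and 13.2 FPKM in male and female WT and between 34.1 and 44.1 in Cre-positive groups.

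Homo mice were then compared with Het mice of the same sex, a contrast not used to select the genes, to ask whether the loss of the second *Bin1* copy moved them. *Chst1* differed by -0.019 log2 in males (95% interval -0.35 to 0.31, limma, adjusted p = 0.998) and by -0.26 in females (interval -0.61 to 0.091, adjusted p = 1). *Chst2* differed by -0.080 in males (interval -0.46 to 0.30, adjusted p = 0.998) and by -0.34 in females (interval -0.74 to 0.061, adjusted p = 1). In both sexes the estimate was on the side of lower levels in Homo mice, without passing the test, and in females it depended on the library labelled Het-F-0206: without both libraries against their label, it was -0.086 for *Chst1* and -0.23 for *Chst2*. For *Chst1* in males it was then 0.025. The other 6 genes lay between -0.37 and 0.12 in males and between -0.27 and 0.060 in females. None of the 8 genes was called, nor was any of the 16897 genes in males (0%) by limma, where 651 had an unadjusted p below 0.05, and 0.0118% were called in females. In the exact permutation tests the smallest unadjusted p of this contrast was that of *Chst11* in females (2.05 in Het and 1.70 FPKM in Homo mice, p = 0.0317, adjusted p = 0.584).

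The change of *Chst1* and *Chst2* against WT was smaller in males than in females by the estimates. For Het mice, the male change minus the female change was -0.64 ± 0.24 log2 (SE) for *Chst1* (limma, unadjusted p = 0.0133, adjusted p = 0.860) and -0.80 ± 0.28 for *Chst2* (unadjusted p = 0.00767, adjusted p = 0.860). For Homo mice it was -0.40 ± 0.25 for *Chst1* and -0.54 ± 0.29 for *Chst2* (adjusted p = 0.595 and 0.558). Neither passed the correction over all genes, where 0% of genes were called in both interactions. *Chst1* and *Chst2* were selected on the changes against WT that enter these differences. Their p-values here are therefore not independent of the selection and cannot decide whether the sexes differ. Without the libraries against their label, the Het values were -0.52 and -0.66. Estimates were negative for all 8 members in Het mice and for 7 of 8 in Homo mice, *Chst15* being the exception, and none was called. *Chst10* had -0.61 ± 0.28 for Het and -0.56 ± 0.29 for Homo mice (adjusted p = 0.860 and 0.554), *Chst11* had -0.56 ± 0.40 and -0.67 ± 0.41 (0.860 and 0.594), and *Chst12* had -0.28 ± 0.22 and -0.48 ± 0.23 (0.860 and 0.535). The median over all genes was -0.0063 for Het and 0.016 for Homo mice.

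The WT groups of the 2 sexes were also compared. Female WT libraries had less *Chst2* than male WT libraries with no overlap (0.354 to 0.486 against 0.504 to 0.774 FPKM), which was so for 0.586% of all genes. The log2 difference was -0.53 ± 0.21 (SE), with an unadjusted p of 0.0164 and an adjusted p of 1 by limma. *Chst1* differed by -0.27 ± 0.18 (adjusted p = 1) with overlap between the sexes. The other 6 genes lay between -0.20 and 0.18, and 0.0473% of all genes were called in this comparison. Of the 8 genes tested, 0 were called, and 1 (*Chst2*) had an unadjusted p below 0.05.

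Among male Cre-positive mice, early and late mouse numbers differed in *Chst7*, a call that depended on single libraries. With genotype as a term, *Chst7* was lower in the 5 early than in the 6 late libraries by -0.61 ± 0.16 log2 (SE) (limma, adjusted p = 0.0316), that is, 21.5, 26.2, 24.5, 31.5 and 26.4 against 36.9, 38.7, 24.9, 34.6, 38.9 and 35.3 FPKM. All but 1 of the late values were above all early values. This was the single member called of the 8 tested, where 7.42% of all genes were. The call was lost in 9 of the 11 fits that left out a library, and it held without Het-M-0203 or Homo-M-0097. Over the 11 fits the log2 difference ran from -0.70 to -0.53 (adjusted p from 0.00328 to 0.129). Calls over all genes moved as well. Their share was between 0.00595% and 3.69% in fits that lost the call, 14.3% without Het-M-0203 and 9.86% without Homo-M-0097. It was lost without the library labelled Het-M-0199 (adjusted p = 0.0568), and without both libraries against their label it was -0.57 ± 0.16 (adjusted p = 0.0571). *Chst11* (-0.68 ± 0.26, adjusted p = 0.1001), *Chst12* (-0.40 ± 0.18, adjusted p = 0.141) and *Chst14* (-0.32 ± 0.16, adjusted p = 0.182) had estimates of the same sign without passing the test, although *Chst11* was called without the library Het-M-0203 (-0.79, adjusted p = 0.0255). Markers of other cells also moved with the number range, 2 of 6 astrocyte, 2 of 6 oligodendrocyte, 1 of 7 border macrophage and 1 of 7 neutrophil markers being called higher in early libraries, and 1 of 9 microglia markers lower. Their part in the result was not tested. For *Chst1* the difference was -0.10 ± 0.087 (adjusted p = 0.426), and for *Chst2* it was -0.035 ± 0.22 (adjusted p = 0.923). What distinguishes the number ranges is not given by the labels. The range moves with the result in males, in that all 5 male WT mice were late and 3 of the 5 Homo mice were early: with late numbers alone, the male Homo differences were 0.064 for *Chst7*, 0.043 for *Chst11* and 0.11 for *Chst14*, changed in sign from the fit of all mice.

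*Chst1* and *Chst2* also varied together within groups. Over the 30 libraries, their log2 deviations from the group means had a Pearson r of 0.64 (0.61 over 28 libraries without those against their label), and with group differences included r was 0.94. All libraries share the normalisation, and the libraries of WT and of Cre-positive mice form separate clusters, so the second value describes the groups. The ratio of *Chst1* to *Chst2* had group medians between 22.6 and 32.2. Within groups, *Chst7*, *Chst11*, *Chst12* and *Chst14* were more alike with one another, r being between 0.67 and 0.77 in their 6 pairs, than any of them was with *Chst1* (0.12 to 0.49) or *Chst2* (0.048 to 0.26). The group means took no account of the mouse number range. In male Cre-positive mice these genes had the lowest early minus late estimates of the tested members (-0.61, -0.68, -0.40 and -0.32 log2). Those of *Chst1* and *Chst2* were -0.10 and -0.035. No test was made of these values.

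**Figure D4:**
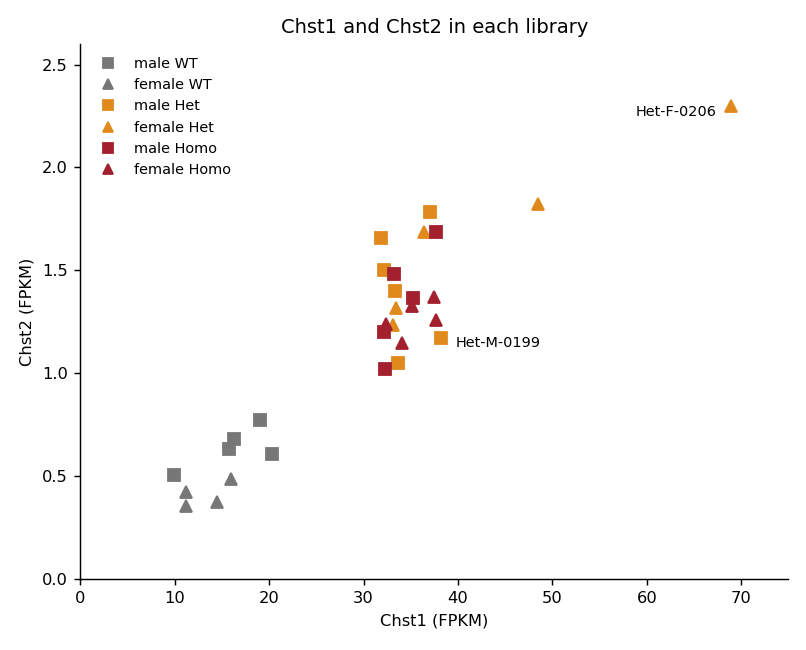
Chst1 (x axis, FPKM) against Chst2 (y axis, FPKM) in the 30 libraries; squares are male and triangles female mice, and colours are genotypes. WT libraries lie at 20.3 FPKM of Chst1 or less and Cre-positive libraries at 31.8 or more, with the library labelled Het-F-0206 apart at 68.9.

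Of 11621 other genes averaging 1 FPKM or more, those most like *Chst1* by deviations from the group means were *Adap1* (r = 0.81), *Axl*, a receptor tyrosine kinase for apoptotic cells (0.69), and *Lox*, lysyl oxidase (0.69). Those most like *Chst2* were *Axl* (0.72), *Limd1* (0.71) and *Gpr65*, a proton-sensing receptor (0.68). Without both libraries against their label, the 3 genes most like *Chst1* were *Def6* (0.81), *Gtf3c5* (0.79) and *Adap1* (0.78), and those most like *Chst2* were *Tap1* (0.74), *Mta3* (0.72) and *Limd1* (0.69), so that *Adap1* and *Limd1* alone were on the lists in both cases. *Axl* was on both lists of all libraries, with means of 16.3 ± 6.87 FPKM (n = 5, SD) in female Het and 6.03 ± 1.33 (n = 4, SD) in female WT mice, and its highest value, 26.8, was in the library labelled Het-F-0206. Without that library its mean in female Het mice was 13.7 ± 4.11 (n = 4, SD). *Limd1* varied with *Chst2* within groups alone, with an r of 0.021 when group differences were included and means between 5.23 and 5.77 FPKM in all groups.

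The enzymes were finally set in the context of 99 other genes of sulfation, of which 65 passed the filter. Called genes were 0 rising and 3 falling in male Homo mice (1.81% of all genes tested were called), and 0 in male Het, female Homo and female Het mice. With an unadjusted p below 0.05, 7 had a positive and 11 a negative difference in male Homo (22.5% of all genes), 3 and 6 in male Het (14.2%), 2 and 1 in female Homo (3.49%), and 3 and 1 in female Het mice (3.95%). The median log2 difference of the 65 genes was -0.090 in male Homo, -0.087 in male Het, 0.015 in female Homo and 0.036 in female Het mice, beside 0.031, 0.014, 0.00099 and 0 over all genes. Among other Chst genes, *Chst8*, which sulfates N-acetylgalactosamine of pituitary hormones, had group means between 11.2 and 14.7 FPKM and was not called. *Chst4* and *Chst13* were listed at 0 in all libraries, and *Chst5* and *Chst9* had no value above 0.147 FPKM.

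The 3 genes that fell in male Homo mice were *Ndst1*, *Sulf1* and *Cd74*. *Ndst1*, an N-deacetylase and N-sulfotransferase of heparan sulfate, had 6.43 ± 2.15 FPKM in male WT and 4.04 ± 0.503 in male Homo mice (n = 5 each, SD), a log2 difference of -0.69 ± 0.19 (SE) (limma, adjusted p = 0.0463). *Sulf1*, a heparan 6-O-endosulfatase, had at most 1.09 FPKM in male WT and 0.0817 in male Homo libraries, where 4 of 5 were listed at 0 (adjusted p = 0.0479 by limma). Its mean over all libraries was 0.113 FPKM, just above the filter of 0.1, and 19 of 30 were listed at 0. It passed the filter only through the libraries where it was high, so its call is not independent of the filter. *Cd74*, the MHC class II invariant chain, which can carry chondroitin sulfate, had 118 ± 27.9 and 54.0 ± 15.3 FPKM (n = 5 each, SD), a log2 difference of -1.21 ± 0.31 (adjusted p = 0.0318). Markers of other cells moved with these genes. Of the neutrophil markers (7 of 8 tested), 4 were called lower in male Homo mice by limma, with a median log2 difference of -4.73, and their sum was between 43.9 and 349 FPKM in male WT and between 0 and 80.8 in male Homo libraries. With 0 called by limma and 5 lower at an unadjusted p below 0.05, those of border macrophages (7 of 7 tested) summed to between 17.5 and 47.0 FPKM in male WT and between 12.4 and 29.7 in male Homo libraries, and those of the choroid plexus (3 of 3, with 0 called and 1 lower at that unadjusted p) to between 0.166 and 264 and between 0.351 and 22.6. Their part in the result was not tested. With late mouse numbers alone, 0 of the 65 genes were called in male Homo mice.

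The summed neutrophil, border macrophage and choroid plexus markers had lower medians in each Cre-positive group than in WT mice of that sex, with ranges that overlapped. Those of astrocytes, neurons and oligodendrocyte precursors had higher medians in each Cre-positive group, as *Chst1* and *Chst2* had. For neutrophils the medians were 72.2 FPKM in male WT, 12.1 in male Het and 0.575 in male Homo mice, and 42.7, 23.6 and 11.7 in the same order in females. For border macrophages the medians were 42.2 FPKM in male WT, 19.1 in male Het and 23.3 in male Homo mice, and 24.9, 15.0 and 16.8 in the same order in females. In female Het and female Homo mice, choroid plexus markers summed to at most 1.48 and 2.405 FPKM. In male WT mice, astrocyte markers (6 of 6) summed to between 68.7 and 79.6 FPKM, in male Het mice to between 65.9 and 117, and in male Homo mice to between 84.7 and 129. *Slc1a3* made up most of these sums on average (82.3 FPKM over all libraries). In females they were between 74.7 and 99.2 in WT and between 71.2 and 102 in Cre-positive libraries. The part of these cells in the *Chst1* and *Chst2* values was not tested. Microglia markers overlapped between groups, with group medians between 23655 and 26277 FPKM.

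The supply of sulfate was without a call. Of 7 genes for synthesis and transport of the donor, 0 were called in any comparison with WT. *Slc35b2*, the PAPS transporter of the Golgi, was at 79.7 to 153 FPKM and *Papss1*, a PAPS synthase, at 28.5 to 41.5 over all libraries, and the log2 difference of *Papss1* was between -0.087 and 0.14. Among 12 other sulfotransferases tested, *Gal3st4* (198 to 285 FPKM), a galactose 3-O enzyme, and *Tpst2* (147 to 237), a tyrosine sulfotransferase, had the highest means, and their differences did not pass the test. The same was so of the leading genes of chondroitin chain synthesis (*Chpf2*, *Chsy1*), of heparan chain synthesis (*Extl3*, *Ext2*) and of the lactosamine backbone of keratan sulfate (*B4galt4*, *B4galt1*). Of the 5 tested genes of keratan and HNK-1 chains, 0 were called against WT. At an unadjusted p below 0.05 by limma, 1 was higher in each female comparison and 0 in males. The highest log2 difference on that list was 0.94 in female Het and 0.67 in female Homo mice. Among the sulfatases, *Arsb*, which removes the 4-sulfate of N-acetylgalactosamine, had 70.3 to 168 FPKM. Of the 13 tested core proteins, serglycin (*Srgn*, 80.0 to 145 FPKM) had the highest mean and was not called.

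**Figure D5:**
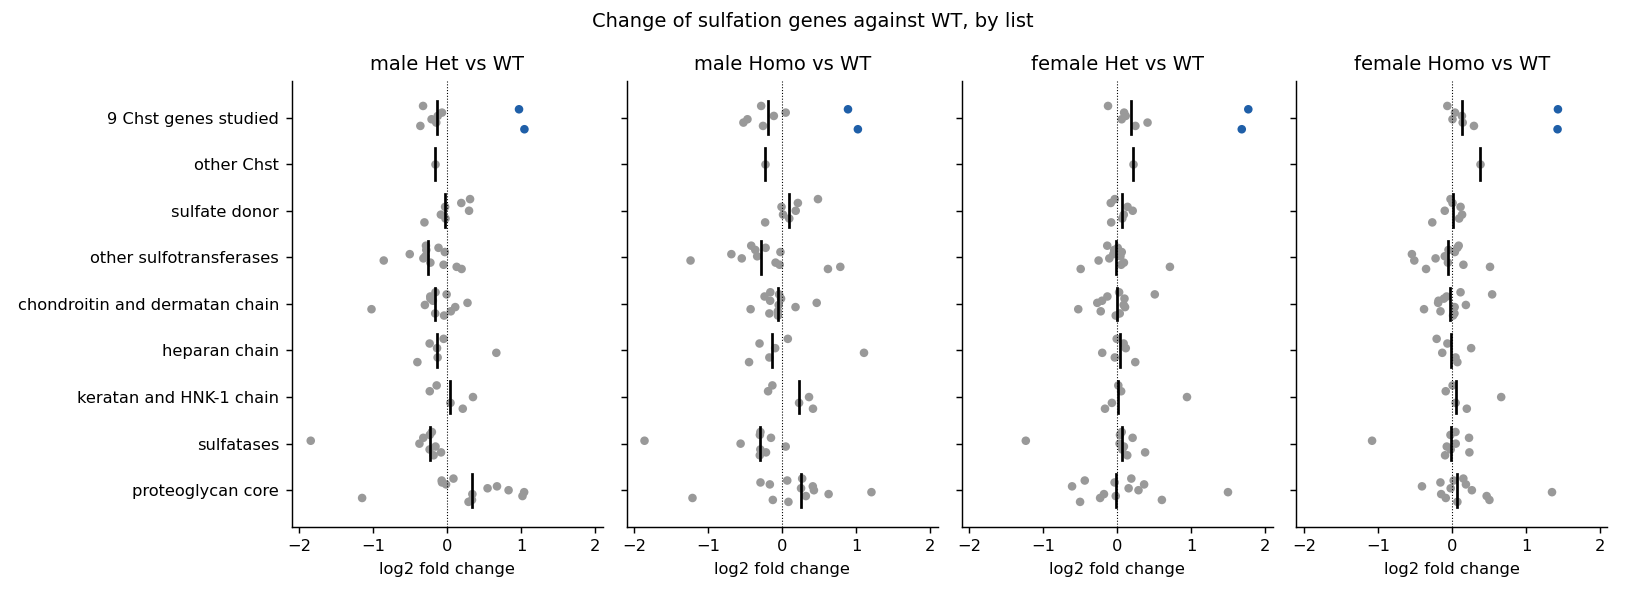
log2 fold change against WT of the same sex (x axis) of single genes (points) by list (y axis), with list medians as black lines and Chst1 and Chst2 in blue. List medians lie between -0.30 and 0.38, and Chst1 and Chst2 between 0.89 and 1.77. Single genes of the lists reach 1.205 in male Homo mice, above Chst1 (1.02) and Chst2 (0.89). In male Het mice they reach 1.038, above Chst2 (0.968) and just below Chst1 (1.041). In female Homo and female Het mice they reach 1.351 and 1.498, below both Chst1 and Chst2.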

How the data were processed

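RNA of sorted microglia was sequenced in 30 libraries and taken by the 6 groups of the labels. The authors aligned reads to mm10, estimated abundance with RSEM and deposited FPKM without a logarithm; replicates were not pooled. The sample protocols also describe cultured microglia, and the description of the study was followed. Value columns of no listed sample (6) were not used. The study removed 6 samples with few uniquely mapped pairs and high duplication, which were also outliers in a principal component analysis. Whether the unused columns are those samples was not checked. If so, the spread between mice was measured after that exclusion. No count table was analysed here, and the count model of the study was therefore replaced by limma.

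Libraries were scaled by their median ratio to the geometric mean of all libraries (genes above 0 in each and averaging at least 1 FPKM), and log2(value + 0.1) of the 16897 genes with a mean of at least 0.1 was fitted with limma 3.58.1 (R 4.3.3) over all groups with an intensity trend. Calls needed a Benjamini-Hochberg adjusted p below 0.05 over all genes and a fold above 1.5. The fold change of low genes is understated on this scale. Exact permutation tests used scipy 1.17.1 on the deposited FPKM. The FPKM hold no read totals, so absolute depth is unknown and no counting error is given. Relative depth was taken from the most frequent ratio of low-gene values between the first library and each other one, divided by the median over libraries.

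Members and lists were chosen with earlier results of these data known. Named genes are the 9 members, of other lists the called genes and the 2 of highest mean, *Bin1*, *Cx3cr1*, and the 3 genes most like *Chst1* and *Chst2*. One gene that this rule names is not reported here. Motifs were searched in the 250 bases before RefSeq start sites. Results were recomputed with other pseudocounts, filters or scalings, with array weights, in fits of fewer groups, by mouse number range, and with libraries left out. Leaving libraries out of the comparison of mouse number ranges, and leaving both libraries against their label out of ranks, correlations and means, were chosen after seeing the data.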

Additional observations from a re-analysis of the deposited data

How the results depend on the processing

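The log2 differences of *Chst1* and *Chst2* from WT were positive under every alternative tried and with any library left out, and 0 of the other 6 tested members were called against WT under any of them. Only a pseudocount of 1 moved those of *Chst2* by more than the spread within groups, to 0.52 (male Het), 0.47 (male Homo), 0.92 (female Het) and 0.69 (female Homo). The 3 sulfation genes called in male Homo mice became 1 without scaling, in a fit of only the groups compared and without both libraries that went against their label, and 0 without a filter, with late mouse numbers only and with a term for the number range. Leaving out a library gave between 0 and 5 in male Homo and between 0 and 1 in male Het mice. Leaving out Homo-M-0093, Homo-M-0109, WT-M-0177 or WT-M-0178 gave 0, leaving out Homo-M-0097, WT-M-0176 or WT-M-0258 gave 1, and leaving out Homo-M-0189 gave 5, in male Homo mice, and leaving out Het-M-0108 or WT-M-0258 gave 1 in male Het mice. The cause was not tested.

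Small differences that did not pass the test changed sign as follows. With late mouse numbers only, male Homo minus WT became 0.064 (*Chst7*), 0.043 (*Chst11*) and 0.11 (*Chst14*), male Het minus WT 0.00016 (*Chst11*) and 0.014 (*Chst15*), female Homo minus WT -0.15 (*Chst11*), -0.0077 (*Chst12*) and -0.016 (*Chst15*), and male Homo minus Het 0.013 (*Chst1*), -0.22 (*Chst10*), 0.043 (*Chst11*) and 0.027 (*Chst12*). The male minus female change became 0.16 (*Chst7*), 0.19 (*Chst11*) and 0.083 (*Chst14*) for Homo and 0.047 (*Chst7*) for Het, and female minus male WT 0.043 (*Chst10*), 0.089 (*Chst11*) and 0.10 (*Chst14*). With the range as a covariate, the values in males were 0.017 (*Chst7*) and 0.092 (*Chst14*) for Homo minus WT, 0.11 (*Chst11*) for Het minus WT and 0.023 (*Chst1*) for Homo minus Het. In females they were -0.051 (*Chst11*), -0.073 (*Chst12*) and -0.012 (*Chst15*) for Homo minus WT and -0.017 (*Chst12*) for Het minus WT. The male minus female change was 0.21 (*Chst7*) and 0.043 (*Chst14*) for Homo and 0.088 (*Chst7*) for Het, and female minus male WT 0.022 (*Chst10*) and 0.077 (*Chst14*). Without both libraries against their label, male Homo minus Het was 0.025 (*Chst1*). Quantile normalisation gave 0.085 (*Chst10*) for female minus male WT and -0.032 (*Chst15*) for the male minus female Homo change. Array weights gave -0.011 (*Chst14*) for male Homo minus Het, 0.0095 (*Chst14*) for female minus male WT and -0.033 (*Chst15*) for the male minus female Homo change, and no scaling gave 0.00045 (*Chst15*) for male Het minus WT.

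With a library left out, ranges that crossed 0 were -0.054 to 0.025 (*Chst1*), -0.019 to 0.20 (*Chst10*), -0.092 to 0.087 (*Chst14*) and -0.079 to 0.15 (*Chst7*) for male Homo minus Het and -0.0067 to 0.10 (*Chst10*), -0.033 to 0.070 (*Chst14*) and -0.11 to 0.024 (*Chst15*) for female Homo minus Het. For female Homo minus WT they were -0.15 to 0.31 (*Chst11*), -0.032 to 0.060 (*Chst12*) and -0.015 to 0.10 (*Chst15*), for female minus male WT -0.11 to 0.097 (*Chst10*), -0.40 to 0.085 (*Chst11*) and -0.070 to 0.098 (*Chst14*), for male Het minus WT -0.20 to 0.085 (*Chst15*), for male Homo minus WT -0.081 to 0.20 (*Chst15*) and for the male minus female Homo change -0.12 to 0.16 (*Chst15*). For early minus late male Cre-positive libraries they were -0.15 to 0.17 (*Chst2*) and -0.25 to 0.12 (*Chst10*). No paired analysis was possible because each mouse number occurs once.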

Other observations

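Of the 65 other sulfation genes tested, 2 were higher and 4 lower in early than in late male Cre-positive libraries (limma, adjusted p below 0.05 and fold above 1.5, beside 7.42% of all genes). *Chst8* was among the lower ones, with a log2 difference of -0.69 ± 0.17 (SE, adjusted p = 0.0307), close to that of *Chst7*, and so was *B4galt1*, a galactosyltransferase, with -0.59 ± 0.13 (adjusted p = 0.0253). With a library left out, the call of *Chst8* was lost in 9 of 11 fits and that of *B4galt1* in 8 of 11. The share of all genes called in these 11 fits ran from 0.00595% to 14.3%. Without both libraries that went against their label, 1 of the 65 genes was higher and 1 lower, beside 3.49% of all genes. No library stood apart from its group by Dixon's criterion in the 54 combinations of gene and group looked at for the 9 Chst genes.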
